A study of Mus musculus with 12 samples.

Results

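The 10 genes described here, B2m, H2-K1, H2-D1, H2-T23, Tap1, Tap2, Tapbp, Psmb8, Psmb9 and Nlrc5, encode parts of the MHC class I antigen presentation pathway. They were chosen by name, because B2m and other interferon targets were high in Sphk1/2gc-/- cumulus cells of these data. The genotype difference in cumulus cells was therefore used to pick them and is given below as a description. The genotype difference in mural granulosa cells (MGCs) was not the stated reason and is tested. Earlier results of these data were known at the time, so the choice was not blind to them. All 10 were listed in both expression tables, which hold 29101 genes for MGCs and 33137 for cumulus cells.

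Transcript levels were measured by RNA sequencing of MGCs, which line the wall of the ovarian follicle, and of cumulus cells, which surround the oocyte. Both came from WT (C57/BL6) mice and from Sphk1/2gc-/- mice, which carry Sphk1-/-, Sphk2 fl/fl and the Fshr-Cre transgene, with 3 libraries per cell type and genotype and 12 in all. The females were 21 to 23 days old and had received 5 IU of eCG, then hCG after a further 48 h, and cells were collected 2 h after hCG. Sphk1 is thus missing from every cell of the Sphk1/2gc-/- mice, whereas Sphk2 is deleted only where the Fshr promoter drives Cre, which is mainly in granulosa cells. The sources do not say whether the WT mice were littermates, and they do not tie libraries to separate animals or pools, so p-values measure only the spread between these libraries, which may be technical.

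MHC class I molecules carry short peptides from inside the cell to its surface, where CD8 T cells and natural killer cells read them. The proteasome cuts proteins into peptides, the TAP transporter moves them into the endoplasmic reticulum, and tapasin holds empty class I molecules beside TAP until a peptide binds. Each class I molecule is a heavy chain paired with beta-2-microglobulin. Nearly all nucleated cells make class I at some level, and interferons raise the whole pathway, in part through IRF1 and the class I transactivator NLRC5.

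All values are FPKM, fragments per kilobase of transcript scaled to the mapped fragments of the library. This unit is per length, so a comparison of levels between genes depends on the length used for each gene. For most values that was the length of all annotated exons of the gene together. Whether this length matched the transcripts present was not tested. The libraries held 16100365 to 19761604 reads by the step between low values. MGC Sphk1/2gc-/- library 3 stood apart, with Pearson r across genes of 0.912 to 0.939 with the other MGC libraries, and the tests of the members in MGCs are given below with and without it. Cumulus WT library 3 listed 27541 genes above 0, against 18788 to 19289 in the other cumulus libraries. Granulosa markers were present in both cell types, with summed levels of 8338 to 14202 FPKM in MGCs and 2320 to 3665 FPKM in cumulus cells, although Amh was at 2.16 FPKM or less in every cumulus library. These sums cover both genotypes. In cumulus cells 4 of 6 markers were lower in Sphk1/2gc-/- at an adjusted p of 0.05 or less with limma, and 0 were higher. Cyp19a1 and Inhba among them fell by more than 2-fold. At that level 2725 of 12205 cumulus transcripts differed in either direction. Sphk1 was at 1.68, 1.88 and 0.460 FPKM in WT MGCs, compared with 0.432, 0.557 and 0.104 FPKM in Sphk1/2gc-/- MGCs, so that the groups overlapped. In cumulus cells, Sphk1 was at 0.0911, 0.0699 and 0.0954 FPKM in WT, against 0.0778, 0.456 and 0.557 FPKM in Sphk1/2gc-/- libraries, which goes against the label of libraries 2 and 3. Gene-level FPKM also counts exons outside a deletion and so checks the genotype only in part, and Sphk1/2gc-/- stands below for the libraries labelled so.

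Class I promoters share an element, called SXY, on which RFX, CREB/ATF and NF-Y factors assemble and to which NLRC5 is recruited. Its X2 box holds the letters TGACG and its Y box the letters ATTGG. The stretches before the start of the light chain gene and of the 2 most abundant heavy chain genes are printed because these 3 members had the highest mean levels in every group and all carry TGACG, then any 20 bases, then ATTGG, on the strand of the gene (RefSeq, GRCm38.p6). Capitals mark these letters and, upstream of them, an interferon-stimulated motif (GAAA, any 2 bases, GAAA) in B2m and a kappa B motif (GGG, any 2 bases, TTCCC) in H2-K1 and H2-D1.
B2m, chr2:122147529-122147648, + strand: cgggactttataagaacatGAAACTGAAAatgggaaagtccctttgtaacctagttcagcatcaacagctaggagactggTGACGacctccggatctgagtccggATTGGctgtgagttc
H2-K1, chr17:34000349-34000468, - strand: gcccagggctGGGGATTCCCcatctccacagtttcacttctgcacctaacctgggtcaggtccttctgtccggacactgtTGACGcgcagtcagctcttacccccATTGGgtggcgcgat
H2-D1, chr17:35262913-35263032, + strand: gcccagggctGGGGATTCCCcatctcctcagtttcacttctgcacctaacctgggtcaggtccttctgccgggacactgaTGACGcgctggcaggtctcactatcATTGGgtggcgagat

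The H2-K1 and H2-D1 windows were identical at 108 of 120 positions. RefSeq promoters of 8 members were matched, and in the 250 bases before each start, with both strands searched, the spaced TGACG and ATTGG pair was found in B2m, H2-K1 and H2-D1 and in 0.0913% of all 32851 promoters. Each core is common on its own: TGACG was in 5 members and in 17.8% of promoters, and ATTGG was in 7 members and in 33.8% of promoters. The interferon-stimulated motif was in B2m and H2-T23 and in 2.98% of promoters. The kappa B motif was in H2-K1 and H2-D1 and in 1.53% of promoters. Each match is a description of the letters and not of a bound site. Tap2 and Nlrc5 had no promoter entry.

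B2m (chr2:122147686-122153083) encodes beta-2-microglobulin, the light chain shared by all class I molecules. In MGCs its level was 386, 350 and 466 FPKM in WT libraries 1 to 3 and 2137, 2152 and 409 FPKM in Sphk1/2gc-/- libraries 1 to 3. Libraries 1 and 2 of Sphk1/2gc-/- lay far above every WT library, while library 3 lay inside the WT range. H2-K1 (chr17:33996017-34000347) and H2-D1 (chr17:35262730-35267499) encode the classical heavy chains, which present peptides to CD8 T cells. The H2-K1 level was 143, 134 and 159 FPKM in WT MGCs, compared with 1167, 1155 and 193 FPKM in Sphk1/2gc-/- MGCs. H2-D1 stood at 123, 117 and 112 FPKM in WT, against 871, 870 and 150 FPKM in Sphk1/2gc-/- MGCs. For both heavy chains all 3 Sphk1/2gc-/- libraries exceeded all WT libraries, library 3 by little. H2-T23 (chr17:36029773-36032855) encodes Qa-1, a nonclassical heavy chain read by the NKG2A receptor of natural killer cells. It was at 13.6, 15.5 and 8.79 FPKM in WT, compared with 30.02, 36.4 and 9.56 FPKM in Sphk1/2gc-/- MGCs, with library 3 again inside the WT range. As these are bulk samples, fewer cells of a type and less RNA per cell cannot be told apart. The heavy chain genes are similar in sequence and differ between mouse strains, so the split of reads among them is uncertain.

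Tap1 (chr17:34187553-34197225) and Tap2 (chr17:34203527-34216321) encode the paired subunits of the peptide transporter. Tap1 was at 3.34, 3.12 and 8.33 FPKM in WT MGCs, against 44.7, 44.5 and 4.61 FPKM in Sphk1/2gc-/- MGCs. The Tap2 level was 2.20, 1.89 and 3.07 FPKM in WT, compared with 7.65, 8.34 and 1.92 FPKM in Sphk1/2gc-/- MGCs. Both transporter genes were high in Sphk1/2gc-/- libraries 1 and 2 only, and Tap1 differed more than Tap2, so that the ratio of Tap2 to Tap1 was 0.657, 0.606 and 0.369 in WT and 0.171, 0.187 and 0.416 in Sphk1/2gc-/- MGCs. Tapbp (chr17:33915899-33929292), the gene of tapasin, was at 20.3, 21.4 and 26.7 FPKM in WT, against 54.9, 58.7 and 17.2 FPKM in Sphk1/2gc-/- MGCs, with library 3 below the WT range. Psmb8 (chr17:34197721-34201454) and Psmb9 (chr17:34181987-34187764) encode LMP7 and LMP2, catalytic subunits that replace constitutive ones in the immunoproteasome. Psmb8 was at 0.886, 0.958 and 1.28 FPKM in WT, compared with 6.06, 7.94 and 1.09 FPKM in Sphk1/2gc-/- MGCs. For Psmb9 the level was 1.19, 0.717 and 1.26 FPKM in WT, against 9.45, 8.62 and 1.25 FPKM in Sphk1/2gc-/- MGCs. Tap1 and Psmb9 are read in opposite directions from starts 211 bases apart and share 212 exon bases. With a library kit that does not mark strand, reads in those bases cannot be assigned to either gene.

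Nlrc5 (chr8:94434356-94527272) encodes the transactivator of class I genes and is one of 2 members outside chromosome 17. Its level was 0.821, 0.786 and 1.10 FPKM in WT MGCs, compared with 20.9, 21.7 and 3.11 FPKM in Sphk1/2gc-/- MGCs. It had the widest gap of the 10 members: Sphk1/2gc-/- libraries 1 and 2 averaged 23.6 times the WT mean, and library 3 stood at 3.45 times the WT mean.

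**Figure D1:**
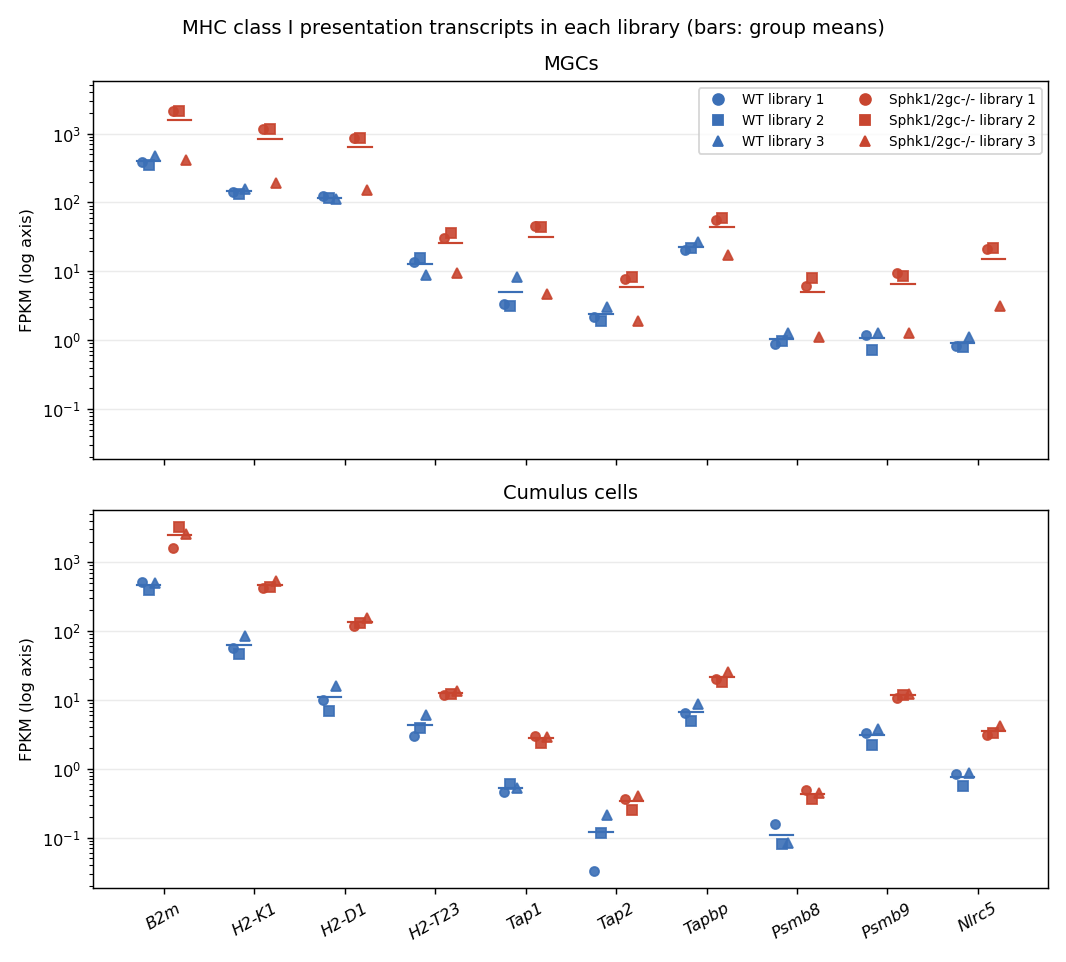
FPKM of the 10 transcripts in each library on a log axis, MGCs above and cumulus cells below, WT in blue and Sphk1/2gc-/- in red, marker shape for the library number and a bar at each group's mean. In MGCs the red triangle (library 3) sits within or near the blue points except for Nlrc5, where it stands above them. In cumulus cells all 3 red points lie above all blue points for 10 of 10 transcripts.

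Across the 10 members, Sphk1/2gc-/- MGC libraries 1 and 2 both exceeded every WT library for 10 of 10 (among all 15279 transcripts tested, 13.5% did), at 2.49 to 23.6 times the WT mean with a median of 7.06. These 2 libraries differed from each other by at most 26.9% of their mean. Library 3 lay inside the WT range for 6 members, above it for H2-K1, H2-D1 and Nlrc5 and below it for Tapbp, at 0.752 to 3.45 times the WT mean with a median of 1.04. All 3 Sphk1/2gc-/- libraries exceeded all 3 WT libraries for 3 of 10 members, against 7.72% of the transcripts tested. WT libraries were not uniform either, since WT library 3 was the highest of the 3 for 8 of 10 members.

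Tested over all 6 MGC libraries with limma on log2(FPKM + 1), 0 of 10 members passed a Benjamini-Hochberg adjusted p of 0.05 (background 0.0393%, 6 of 15279 transcripts, and 3 with a replicate block, where 0 of 10 members passed as well). At an unadjusted p of 0.05 or less there were 7 of 10 members, against 9.2% of all transcripts. The log2 fold changes (Sphk1/2gc-/- over WT, on the log2(FPKM + 1) scale, which understates the change of low genes) were positive for 10 of 10, with a median of 1.61 against -0.0034 for all transcripts. Nlrc5 had the largest value, 2.74 (SE 0.637, adjusted p = 0.259 with limma), and Tapbp the smallest, 0.73 (SE 0.446, adjusted p = 0.675 with limma). B2m stood at 1.63 (SE 0.629), H2-K1 at 2.13 (SE 0.669), H2-D1 at 2.04 (SE 0.654) and Tap1 at 2.04 (SE 0.830).

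Library 3 of Sphk1/2gc-/- decided this outcome. Without it, 9 of 10 members were called higher, that is, with an adjusted p of 0.05 or less and at least a 2-fold change (background 0.762%, 116 of 15215 transcripts). The exception was H2-T23, with a log2 fold change of 1.35 (SE 0.240, adjusted p = 0.0646 with limma). The log2 fold change was 3.55 (SE 0.117) for Nlrc5, 3.05 (SE 0.368) for Tap1, 2.99 (SE 0.110) for H2-K1, 2.88 (SE 0.0901) for H2-D1 and 2.43 (SE 0.152) for B2m, with adjusted p of 0.00103 to 0.0250 among these 5. With libraries 1 and 2 of each genotype only, 10 of 10 were called higher (background 1.24%, 191 of 15433), with a median log2 fold change of 2.46 against -0.12 for all transcripts. Leaving out any one of the other 5 libraries gave 0 members with an adjusted p of 0.05 or less. Runs without library 3 keep only the Sphk1/2gc-/- libraries in which the members were high. Their calls, here and for the lists below, therefore describe libraries 1 and 2 and do not stand for the genotype.

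**Figure D2:**
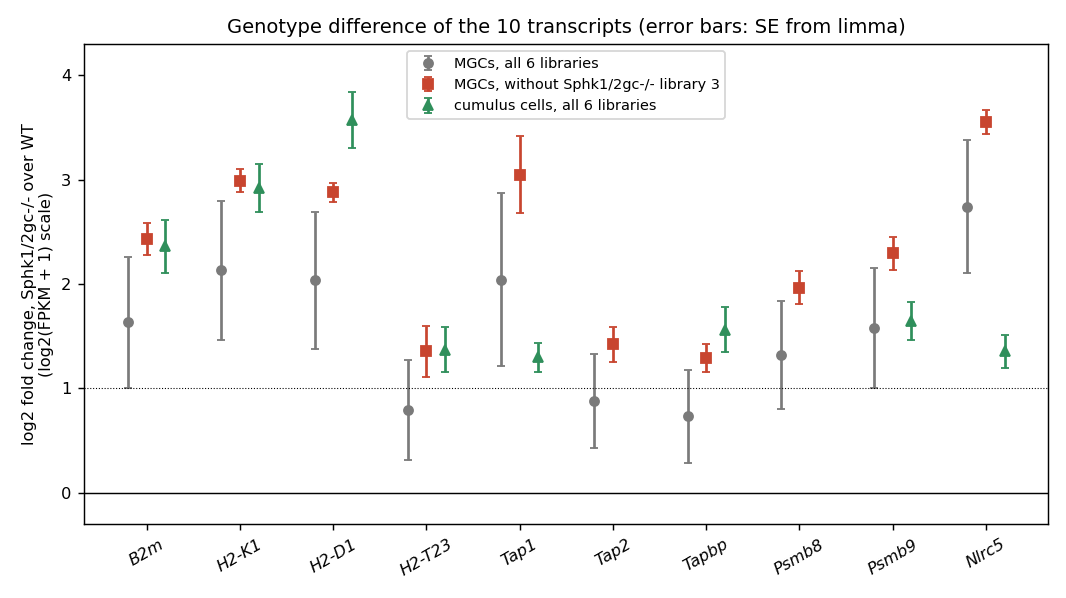
Log2 fold change of each transcript, Sphk1/2gc-/- over WT on the log2(FPKM + 1) scale, with the SE from limma as error bars and a dotted line at a 2-fold change. Grey circles (MGCs, all 6 libraries) carry wide error bars, red squares (MGCs without Sphk1/2gc-/- library 3) lie above 1 with narrow ones, and green triangles (cumulus cells) are a description because the genes were chosen on that contrast; Tap2 and Psmb8 were under the expression filter there.

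In cumulus cells, the contrast on which the genes were chosen, each member was higher in all 3 Sphk1/2gc-/- libraries than in all 3 WT libraries, 10 of 10, where 18.2% of the tested transcripts were. Mean levels in Sphk1/2gc-/- were 2.82 to 12.3 times those in WT, with a median of 4.32. B2m stood at 511, 400 and 497 FPKM in WT, against 1636, 3257 and 2592 FPKM in Sphk1/2gc-/- cumulus cells. The H2-K1 values were 57.3, 46.3 and 84.0 FPKM in WT, compared with 429, 434 and 543 FPKM in Sphk1/2gc-/-. The widest ratio was that of H2-D1, at 9.90, 6.97 and 15.9 FPKM in WT, against 120, 129 and 155 FPKM in Sphk1/2gc-/-. Sphk1/2gc-/- library 3, which was the highest of its group for both heavy chains here, is a different sample from the MGC library of that number.

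H2-T23 was at 3.03, 3.95 and 6.07 FPKM in WT, compared with 11.8, 12.1 and 13.6 FPKM in Sphk1/2gc-/- cumulus cells. Tapbp was at 6.39, 4.89 and 8.67 FPKM in WT, against 20.1, 18.2 and 25.7 FPKM in Sphk1/2gc-/-. The Psmb9 values were 3.29, 2.20 and 3.81 FPKM in WT, compared with 10.8, 12.0 and 12.2 FPKM in Sphk1/2gc-/-. These 3 genes thus kept gaps of 2.87, 3.21 and 3.76 times between the group means. Nlrc5 was at 0.841, 0.557 and 0.865 FPKM in WT, against 3.06, 3.26 and 4.19 FPKM in Sphk1/2gc-/-. For Tap1 the values were 0.454, 0.610 and 0.530 FPKM in WT, compared with 3.02, 2.37 and 2.92 FPKM in Sphk1/2gc-/-.

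Tap2 and Psmb8 were near the limit of detection in cumulus cells and did not pass the filter of a mean of 0.5 FPKM. Tap2 was at 0.0329, 0.118 and 0.211 FPKM in WT, against 0.365, 0.254 and 0.400 FPKM in Sphk1/2gc-/-, which corresponds to 2, 8 and 14 reads against 26, 19 and 29 reads. Psmb8 was at 0.159, 0.0813 and 0.0832 FPKM in WT, compared with 0.485, 0.370 and 0.438 FPKM in Sphk1/2gc-/-, or about 9, 5 and 5 reads against 31, 25 and 28 reads. The other 8 members had log2 fold changes of 1.30 (Tap1) to 3.57 (H2-D1) and all 8 passed the rule for a call, where 4.19% of the transcripts tested were called higher. Since the genes were chosen on this contrast, nothing is read from these counts. WT library 3, in which more genes were detected, was the highest WT library for 7 of 10 members.

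The order of levels differed between the cell types, whose tables were made separately and are set side by side without a test. In WT MGCs the order of mean levels was B2m at 400 ± 59.1 FPKM, H2-K1 at 145 ± 12.8, H2-D1 at 117 ± 5.25, Tapbp at 22.8 ± 3.45, H2-T23 at 12.6 ± 3.47, Tap1 at 4.93 ± 2.94 and Tap2 at 2.39 ± 0.614 FPKM (SD, n = 3), each neighbour without overlap. Psmb9, Psmb8 and Nlrc5 followed near 1 FPKM, with overlapping libraries. In WT cumulus cells B2m stood at 469 ± 60.3 FPKM, H2-K1 at 62.6 ± 19.4 and H2-D1 at 10.9 ± 4.56 FPKM (SD, n = 3), and the libraries of H2-D1, Tapbp, H2-T23 and Psmb9 overlapped from one neighbour to the next. B2m and Psmb9 had lower WT means in MGCs than in cumulus cells, at 0.853 and 0.341 times the cumulus mean, and the other 8 members had higher ones. For B2m, and for Nlrc5 at 1.19 times the cumulus mean, the WT libraries of both cell types overlapped. That ratio was largest for Tap2 at 19.8 times, H2-D1 at 10.8 times, Psmb8 at 9.66 times and Tap1 at 9.29 times the cumulus mean.

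The mix of heavy chains also differed between the cell types. H2-D1 stood at 0.856, 0.878 and 0.706 of the H2-K1 level in WT MGCs and at 0.747, 0.753 and 0.777 of it in Sphk1/2gc-/- MGCs. In cumulus cells that ratio was 0.173, 0.151 and 0.189 in WT and 0.280, 0.298 and 0.285 in Sphk1/2gc-/-. H2-K1 reached 0.342 to 0.382 of the B2m level in WT MGCs and 0.472 to 0.546 in Sphk1/2gc-/- MGCs, library 3 included. In cumulus cells that ratio overlapped between genotypes, at 0.112, 0.116 and 0.169 in WT and 0.262, 0.133 and 0.209 in Sphk1/2gc-/-. A ratio of 2 genes within a library is free of the scaling of that library, and these ratios were not tested.

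The immunoproteasome differs from the constitutive proteasome in 3 catalytic subunits: Psmb8 takes the place of Psmb5, Psmb9 that of Psmb6 and Psmb10 that of Psmb7. In MGCs the ratio of Psmb8 to Psmb5 was 0.0408, 0.0481 and 0.0576 in WT and 0.317, 0.465 and 0.0379 in Sphk1/2gc-/-. The ratio of Psmb9 to Psmb6 was 0.0271, 0.0144 and 0.0236 in WT and 0.201, 0.174 and 0.0202 in Sphk1/2gc-/- MGCs. Psmb10 stood at 0.341, 0.323 and 0.320 of Psmb7 in WT and at 0.802, 0.866 and 0.232 of it in Sphk1/2gc-/- MGCs. All 3 ratios were high in Sphk1/2gc-/- libraries 1 and 2, and library 3 lay below the WT range for Psmb8 and Psmb10 and inside it for Psmb9. The constitutive subunits had MGC log2 fold changes close to 0, at -0.01 (SE 0.201) for Psmb5, 0.10 (SE 0.1502) for Psmb6 and 0.16 (SE 0.143) for Psmb7, and -0.19, 0.04 and 0.13 with libraries 1 and 2 only.

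In cumulus cells the ratio of Psmb9 to Psmb6 was 0.0427, 0.0344 and 0.0714 in WT and 0.210, 0.199 and 0.224 in Sphk1/2gc-/-, and that of Psmb10 to Psmb7 was 0.0725, 0.0725 and 0.0750 against 0.216, 0.265 and 0.280. Part of the last difference lay in Psmb7, which fell by 0.52 on the log2 scale (SE 0.155, adjusted p = 0.0453 with limma). Psmb8 stayed under 0.02 of Psmb5 in every cumulus library, at 0.00298, 0.00160 and 0.00149 in WT and 0.0191, 0.00549 and 0.00773 in Sphk1/2gc-/-. Psmb5 itself was at 25.4, 67.3 and 56.7 FPKM in these Sphk1/2gc-/- libraries. The 2 immunosubunits encoded beside the TAP genes were near balance in MGCs, with Psmb9 at 0.748 to 1.56 times the Psmb8 level over all 6 libraries. They were far from it in cumulus cells, with Psmb9 at 20.7 to 45.8 times the Psmb8 level. The cumulus ratios rest on about 9, 5 and 5 Psmb8 reads in WT and 31, 25 and 28 in Sphk1/2gc-/-, so their size is uncertain.

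**Figure D3:**
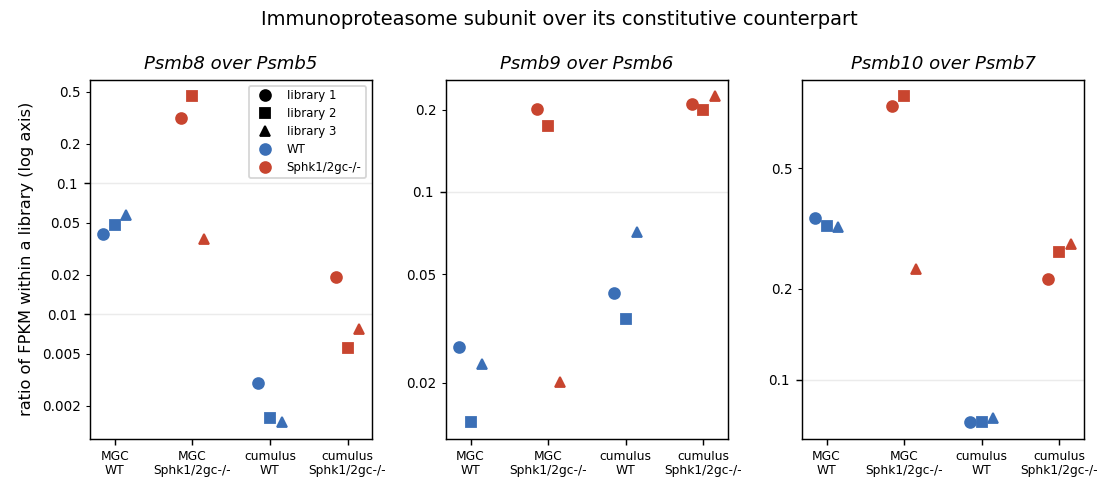
Ratio of each immunoproteasome subunit to its constitutive counterpart within a library, on log axes, for the 4 groups with WT in blue and Sphk1/2gc-/- in red; marker shape gives the library number. MGC Sphk1/2gc-/- libraries 1 and 2 stand above WT for all 3 ratios while library 3 does not, and Psmb8 over Psmb5 is under 0.02 in all cumulus libraries.

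The other class I heavy chains, 22 of which were listed, held 15 tested genes in MGCs, of which 0 passed an adjusted p of 0.05 over 6 libraries (median log2 fold change 0.47), and 6 were called higher and 0 lower with libraries 1 and 2 only. In cumulus cells 12 were tested, 4 were called higher and 1, H2-Q10, lower. H2-Q4 was at 19.1, 16.5 and 24.3 FPKM in WT MGCs, against 164, 172 and 26.6 FPKM in Sphk1/2gc-/- MGCs, whereas it reached no more than 0.603 FPKM in any cumulus library. H2-M3, which presents formylated peptides, was at 17.2, 17.1 and 21.03 FPKM in WT, compared with 48.4, 48.8 and 15.5 FPKM in Sphk1/2gc-/- MGCs. Procr, the endothelial protein C receptor and a class I relative outside antigen presentation, had MGC levels of 64.8, 69.2 and 55.7 FPKM in WT, compared with 81.0, 77.1 and 28.7 FPKM in Sphk1/2gc-/-, so that libraries 1 and 2 lay slightly above WT and library 3 below it. In cumulus cells Procr was among the genes called higher, at 6.91, 6.74 and 15.6 FPKM in WT, compared with 27.6, 18.5 and 44.6 FPKM in Sphk1/2gc-/-.

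Peptide supply and loading outside the 10 members was represented by 22 listed genes. In MGCs 22 were tested and 0 passed over 6 libraries (median log2 fold change 0.29), and 4 were called higher with libraries 1 and 2 only, namely Psmb10, Psme2, Erap1 and Tapbpl. In cumulus cells 2 of 21 were called higher, Psmb10 and B4galt1. The most abundant genes of the list, the chaperones Pdia3, Hspa5, Calr and Canx, which serve all glycoproteins of the endoplasmic reticulum, had MGC log2 fold changes of 0.46 (SE 0.221), 0.49 (SE 0.247), 0.47 (SE 0.283) and 0.33 (SE 0.199). With libraries 1 and 2 only these were 0.72, 0.75, 0.67 and 0.45. Calr was at 496, 471 and 916 FPKM in WT libraries and at 772, 768 and 964 FPKM in Sphk1/2gc-/- libraries of MGCs, so that library 3 was the highest of both genotypes.

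Of 15 transcription factors of class I genes, 14 were tested in MGCs and 0 passed over 6 libraries. Irf1, an interferon-induced activator, was at 3.93, 4.45 and 9.19 FPKM in WT MGCs, compared with 20.9, 26.3 and 4.70 FPKM in Sphk1/2gc-/- MGCs. In cumulus cells it was at 2.39, 2.87 and 2.13 FPKM in WT, against 16.6, 9.00 and 8.86 FPKM in Sphk1/2gc-/-. The more abundant Rela, Atf1 and Nfyc, which bind the kappa B, X2 and Y boxes with their partners, had MGC log2 fold changes of 0.06 (SE 0.145), 0.19 (SE 0.126) and -0.01 (SE 0.126), and of 0.10, 0.28 and -0.01 with libraries 1 and 2 only.

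Interferon receptors, their kinases and the transcription factors Stat2 and Irf9 formed a list of 11 genes. Of these, 11 passed the expression filter in MGCs and 8 in cumulus cells. Of 11 tested in MGCs 0 passed over 6 libraries. With libraries 1 and 2 only, 2 were called higher, Stat2 and Irf9, neither of them a receptor or kinase. In that run Ifnlr1 was lower without a 2-fold change (log2 fold change -0.80, adjusted p = 0.0269 with limma). In cumulus cells 1 of 8, the kinase Jak2, was called higher. Ifngr1 was at 10.6 to 12.5 FPKM in every MGC library and at 15.4 to 29.5 FPKM in the cumulus libraries, without a call. Interferon genes themselves were at or near 0: of 21 interferon ligands 10 were listed, none passed the expression filter, and their summed level was at most 0.667 FPKM in any library. Ifng was at 0, 0.0460 and 0 FPKM in WT MGCs, at 0.0911, 0.137 and 0 FPKM in Sphk1/2gc-/- MGCs and at 0 in every cumulus library.

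Class II presentation genes, normally restricted to professional antigen presenting cells and inducible by interferon gamma elsewhere, were high in the same libraries as the members. In MGCs 0 of 6 tested passed over 6 libraries, 6 of 7 were called higher with libraries 1 and 2 only (median log2 fold change 4.16), and in cumulus cells 6 of 6 were called higher. H2-Ab1 was at 2.04, 1.93 and 0.978 FPKM in WT MGCs, compared with 72.1, 85.1 and 3.62 FPKM in Sphk1/2gc-/- MGCs.

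Markers of blood cells were examined because leukocytes are rich in class I and class II transcripts. Their part in the differences was not tested, and the levels were as follows. The 7 leukocyte markers summed to 42.7, 36.7 and 20.6 FPKM in WT MGCs and to 39.1, 46.8 and 11.7 FPKM in Sphk1/2gc-/- MGCs, with 0 of 7 called with libraries 1 and 2 only, although Laptm5 passed an adjusted p of 0.05 without reaching a 2-fold change. Among them Ptprc, which encodes the pan-leukocyte protein CD45, was at 1.22, 0.817 and 0.580 FPKM in WT, against 1.37, 1.51 and 0.0544 FPKM in Sphk1/2gc-/- MGCs. Sphk1/2gc-/- library 2 had the highest leukocyte sum of the 6 MGC libraries and library 3 the lowest. Macrophage markers summed to 140, 114 and 43.2 FPKM in WT MGCs and to 122, 144 and 25.1 FPKM in Sphk1/2gc-/- MGCs. This sum mixed directions. With libraries 1 and 2 only, 3 of 7 (C1qa, C1qb and C1qc) were called higher, and Lyz2 was lower without a 2-fold change (adjusted p = 0.0345 with limma). C1qa was at 10.5, 9.63 and 3.88 FPKM in WT, against 25.6, 29.4 and 5.16 FPKM in Sphk1/2gc-/- MGCs. Lyz2, the most abundant on average, was at 98.6, 80.1 and 27.3 FPKM, against 42.2, 55.1 and 8.49 FPKM. Neutrophil markers were lower in every Sphk1/2gc-/- MGC library, with sums of 6.83 to 32.4 FPKM, against 131 to 198 FPKM in WT. Of these, 4 of 4 were called lower with libraries 1 and 2 only (background 1.85%, 286 of 15433 transcripts). Markers of T, NK and B cells summed to 0.643 to 1.44 FPKM in WT MGCs and to 5.79, 5.68 and 1.00 FPKM in Sphk1/2gc-/- MGCs. The main contributor was Nkg7, a granule protein of natural killer and cytotoxic T cells, at 4.07, 4.07 and 0.605 FPKM in Sphk1/2gc-/- and at 0.130 to 0.531 FPKM in WT. Nkg7, and through it the sum, was therefore high in the same 2 libraries as the members. The rest of the 6 markers averaged 0.160 FPKM or less over the 12 libraries. With libraries 1 and 2 only, 3 of 6 passed the expression filter and 1 was called higher. Endothelial markers summed to 10.01 to 12.95 FPKM in WT and to 7.34 to 8.56 FPKM in Sphk1/2gc-/- MGCs, theca and stroma markers to 121 to 269 and 93.8 to 159 FPKM, and oocyte markers to 31.7 to 77.1 and 23.5 to 97.5 FPKM. In cumulus cells these 3 sums were at most 0.505, 29.99 and 4.10 FPKM.

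In cumulus cells the leukocyte markers summed to 1.58 to 2.30 FPKM in WT and to 3.50 to 8.06 FPKM in Sphk1/2gc-/-. Ptprc did not exceed 0.0377 FPKM in any cumulus library, Laptm5 did not exceed 0.0301 FPKM, and the markers of T, NK and B cells summed to 0.245 FPKM or less. Of the 3 leukocyte markers tested there, 0 were called, with log2 fold changes of 0.91 (SE 0.191, adjusted p = 0.0133 with limma) for Fcer1g, 0.92 (SE 0.322) for Cd53 and 0.34 (SE 0.216) for Cd52. Macrophage markers summed to 37.5, 2.29 and 9.67 FPKM in WT and to 52.4, 8.86 and 67.5 FPKM in Sphk1/2gc-/- cumulus cells. Of 5 tested, 2 were called higher, the complement genes C1qa (log2 fold change 1.33, SE 0.399) and C1qb (1.96, SE 0.519), and the median was 1.33. The members summed to 466 to 617 FPKM in WT, compared with 2235 to 3869 FPKM in Sphk1/2gc-/- cumulus cells, and the part of macrophage transcripts in this difference was not tested.

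**Figure D4:**
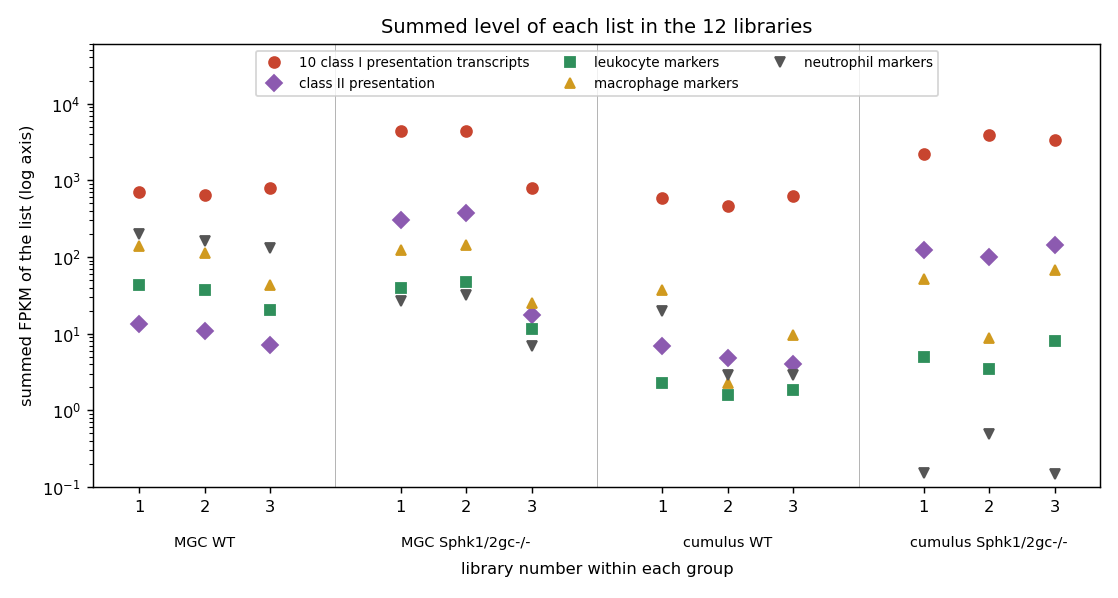
Summed FPKM of the 10 class I presentation transcripts, of the class II genes and of 3 marker lists in each of the 12 libraries, on a log axis. The class I sum is 4348 and 4363 FPKM in MGC Sphk1/2gc-/- libraries 1 and 2 and 791 FPKM in library 3, against 646 to 788 FPKM in WT, while the leukocyte sum of libraries 1 and 2 is 39.1 and 46.8 FPKM, against 20.6 to 42.7 FPKM in WT.

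The members on chromosome 17 span chr17:33915899-36032855 (GRCm38) within the MHC. Genes in any of the lists and all others with a symbol starting with H2- were set aside. Of the 102 remaining protein-coding genes in this span, 71 were tested in MGCs and 0 were called over 6 libraries. With libraries 1 and 2 only, 2 of them (Aif1 and C4b) were called higher. In cumulus cells 50 were tested, 1 (Clic1) was called higher and 1 lower, and the median log2 fold change was -0.02. Over all 6 MGC libraries their median was 0.07, against 1.61 for the members.

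Levels of the 10 members followed each other across libraries. With log2(FPKM + 1) centred within each cell type, each member had a Pearson r of 0.856 (Tap2) to 0.994 (Psmb9) with the mean of the other 9 over the 12 libraries, which is a description, since the libraries share genotype and cell type and fall into high and low sets. By the same measure, the 5 genes outside the members whose pattern was most like theirs, among 4330 genes averaging 5 FPKM or more in both tables, were H2-Q7 (r = 0.985), Erap1 (0.983), H2-Eb1 (0.978), H2-Aa (0.978) and H2-Ab1 (0.976). That average was over both genotypes. H2-Q7, H2-Eb1, H2-Aa and H2-Ab1, with WT means of 0.210 to 3.29 FPKM, passed it only through Sphk1/2gc-/- libraries. Their likeness to a pattern high there was thus in part set by the filter. Erap1 averaged 12.7 FPKM in WT MGCs and 5.38 FPKM in WT cumulus cells. H2-Q7, a nonclassical heavy chain, was at 3.07, 2.05 and 2.13 FPKM in WT MGCs, against 83.3, 70.9 and 5.99 FPKM in Sphk1/2gc-/- MGCs. Erap1, the aminopeptidase that trims peptides in the endoplasmic reticulum, was at 12.6, 11.9 and 13.7 FPKM in WT, compared with 30.5, 32.3 and 13.9 FPKM in Sphk1/2gc-/- MGCs. In cumulus cells Erap1 was at 4.77 to 6.06 FPKM in WT, against 9.15 to 11.1 FPKM in Sphk1/2gc-/-.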

How the data were processed

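The deposited values are FPKM, made by the authors in 1 table per cell type. HISAT2 and GRCm38 are named in the submitters' processing notes. The kit (NEBNext Ultra) does not mark strand, and the counting tool and annotation are not given in the sources used here. All deposited columns were read (0 unused). GENCODE M21 (GRCm38) gave symbols and coordinates, and 64 MGC and 66 cumulus genes had no entry. FPKM times exon length was a whole number of reads (tolerance 0.02) for 90.6% to 92.1% of values per library and for 76 of 120 member values, and other read counts are approximate. RefSeq promoters (GRCm38.p6) were searched in Python 3.11.15. GENCODE M21 has H2-D1 transcripts that start upstream of the RefSeq start.

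Each table was fitted alone, without further normalization, with limma 3.58.1 (R 4.3.3) and its trend option. The values entered as log2(FPKM + 1), and a gene was tested if it averaged 0.5 FPKM or more in either genotype. A call needed a p of at most 0.05, adjusted by Benjamini-Hochberg over all tested genes, and a 2-fold change. The fit was tested on simulated data with a small spread, equal in both genotypes. That setting does not cover a group in which a single library stands apart, as in Sphk1/2gc-/- MGCs. Samples were grouped by their labels, with 3 libraries per group. Same-numbered MGC libraries deviated together (r = 0.220, 0.158 and 0.224), so a replicate block was tried, whereas cumulus libraries did not (r = -0.148, -0.0511 and 0.115). Other alternatives were a pseudocount of 0.1, no filter, median centring, no trend, libraries 1 and 2 only and leaving out each library.

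The members and lists were chosen with earlier results of these data known. Values are given for all members, for at most 4 genes of a list by mean level over the 12 libraries, for Psmb5, Psmb6, Psmb7, Psmb10, Sphk1 and Sphk2, and for the 5 genes most alike. Markers and called genes named beyond this were chosen after their values were seen. Sphk2, at 4.51 to 6.29 FPKM in MGCs and 0.403 to 0.752 FPKM in cumulus cells, overlapped between genotypes. Some results on 1 gene list and 1 promoter motif are not reported here.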

Additional observations from a re-analysis of the deposited data

How the results depend on the processing

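All 10 members kept a positive log2 fold change in MGCs and all tested members did in cumulus cells under every alternative run. In MGCs 0 members had an adjusted p of 0.05 or less in the main fit, 10 did with libraries 1 and 2 only, and 0 to 9 with 1 library omitted at a time, the 9 without Sphk1/2gc-/- library 3. The member median ranged from 1.21 to 2.36 over these omissions. Transcripts called in MGCs numbered 6, and 1 without the filter, 1 after median centring, 477 with libraries 1 and 2 only, 3 with the replicate block and 0 to 170 with a library left out. In cumulus cells 981 were called, 1674 with a pseudocount of 0.1, 962 with the replicate block and 757 to 1305 with a library left out, and all 8 tested members were called under each. The replicate block changed no call of a member. With 3 libraries per group, 1 library sets the MGC spread. Tap2 and Psmb8 are limited by their few reads in cumulus cells.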
